A study of Homo sapiens with 4 samples.

Results

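The 35 proteasome subunit genes were described across 4 STARR-seq peak lists from MDA-MB-231 cells, 1 list per treatment. The members were the protein-coding genes for the subunits of the core particle and its regulatory cap, and all 35 were found among 19974 protein-coding genes of the RefSeq annotation (GRCh38.p14). They comprised 7 core alpha genes (PSMA), 10 core beta genes (PSMB), 6 ATPase genes (PSMC) and 12 non-ATPase genes (PSMD and ADRM1). A peak belonged to a member when its summit, the position of highest coverage, lay inside the gene or within 10 kb of it, so 1 peak could belong to more than 1 gene.

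The study asked how a stabilizer of the clock repressor CRY2 and a proteasome inhibitor alter the activity of regulatory DNA. STARR-seq reads that activity from a plasmid library of random genomic fragments, here sheared DNA of MDA-MB-231 itself, a triple-negative human breast cancer line: a fragment that acts as an enhancer raises the transcription of the reporter it sits in, and is counted in the reporter RNA. Cells of that line were placed in medium with DMSO as the vehicle control, with 10 µM SHP1705 (the CRY stabilizer), with 100 nM MG132 (the proteasome inhibitor) or with SHP1705 and MG132 together at those doses (the combination). All 4 groups then received the same transfection mix, and RNA was taken at 8 h. Each group was 1 library, so there was no spread between replicates, no difference could be tested, and the intervals given cover counting error only. A plasmid library made from the line carries no fragment of a locus that the line has lost, and it measures fragments outside their chromosomal setting.

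The proteasome is the barrel-shaped protease that degrades ubiquitin-tagged proteins. The outer rings of its core are built from alpha subunits, which gate the entrance. The inner rings are built from beta subunits, and PSMB5, PSMB6 and PSMB7 carry the catalytic sites, among which the chymotrypsin-like site of PSMB5 is the main target of MG132. In the cap, ATPase subunits unfold substrates and thread them into the core, while non-ATPase subunits bind ubiquitin and remove it. When the proteasome is inhibited, cells are known to raise the transcription of most subunit genes together through NFE2L1, a membrane-bound factor that binds antioxidant response elements in their promoters.

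The libraries held 29717604 fragments for DMSO, 118324303 for SHP1705, 27289266 for MG132 and 28331486 with both drugs, and gave 47822, 85840, 69842 and 57174 peaks on chromosomes 1 to 22 and X. Heights are given as the pileup, the number of fragments over the summit, per 1000000 fragments of the library (FPM). The lowest height called was 0.237 FPM in SHP1705 and between 0.424 and 0.440 in the other lists. The locus of CDKN2A, CDKN2B and MTAP, taken as lost from MDA-MB-231, was checked for peaks inside these genes. At CDKN2A the SHP1705 list held 5 peaks and the other 3 lists 0. Its neighbour CDKN2B held 3 peaks in SHP1705 and 1 in MG132, and MTAP, beside them, held 1 in DMSO, 3 in SHP1705, 0 in MG132 and 1 with both drugs. Each list thus held at least 1 peak inside these genes. The heights and exact places of these peaks were not examined, and the extent of the loss in the labelled line was not tested. Peaks inside CDKN2A itself were seen in SHP1705 alone, and each of the other lists held a single peak, at CDKN2B or MTAP. The part of this in the results that follow was not tested. Each result is given per list, so that it can be read with and without the library labelled SHP1705.

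Promoter sequence is shown for members in which a peak overlapped the promoter window. The window was chosen since the known NFE2L1 sites of these genes lie near the start. RefSeq promoters, 250 bases before to 50 after the start (GRCh38.p14), were matched for 30 of the 35 members, as 38 promoters; PSMA7, PSMB1, PSMB6, PSMB7 and PSMD4 were unmatched. In 8 members a peak overlapped such a promoter. Those of 3 are shown: PSMD3, with the tallest of these peaks (chr17:39980557-39980856, plus strand), PSMA2 with a peak over the start in the combination (chr7:42932125-42932424, minus strand) and PSMA4, whose second promoter lay wholly under a SHP1705 peak (chr15:78540536-78540835, plus strand). Capitals mark matches on either strand to TGACNNNGC (the antioxidant response element core), CCAAT (the NF-Y site) or GGGCGG (the SP1 site), and in PSMA4 a CCAAT match and a GGGCGG match overlap.
PSMD3: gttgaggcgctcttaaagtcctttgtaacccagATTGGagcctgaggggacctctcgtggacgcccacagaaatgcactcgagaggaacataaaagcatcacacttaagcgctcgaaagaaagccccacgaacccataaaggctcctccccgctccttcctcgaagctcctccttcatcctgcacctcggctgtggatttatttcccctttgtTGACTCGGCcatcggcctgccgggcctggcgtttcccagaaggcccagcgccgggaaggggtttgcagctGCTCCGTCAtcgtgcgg
PSMA2: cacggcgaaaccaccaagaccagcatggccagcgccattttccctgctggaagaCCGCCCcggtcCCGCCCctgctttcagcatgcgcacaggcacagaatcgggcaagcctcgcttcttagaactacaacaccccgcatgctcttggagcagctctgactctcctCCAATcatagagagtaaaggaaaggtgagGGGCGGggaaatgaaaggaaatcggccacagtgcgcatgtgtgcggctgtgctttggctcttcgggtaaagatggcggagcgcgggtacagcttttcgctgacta
PSMA4: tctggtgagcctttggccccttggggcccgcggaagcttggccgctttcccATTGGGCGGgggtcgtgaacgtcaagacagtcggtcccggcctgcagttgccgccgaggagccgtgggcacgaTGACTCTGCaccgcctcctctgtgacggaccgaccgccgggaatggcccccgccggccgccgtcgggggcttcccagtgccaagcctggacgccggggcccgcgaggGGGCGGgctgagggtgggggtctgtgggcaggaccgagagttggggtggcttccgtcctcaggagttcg

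The PSMD3 promoter held TGACNNNGC on both strands and met its peak, of 3198 fragments in SHP1705, over 37 bp. That peak began past the annotated start and did not cover it, with the summit 171 bp inside the gene. The PSMA2 promoter held 3 GGGCGG matches and 1 CCAAT match, and its peak in the combination, of 140 fragments, had its summit 50 bp upstream of the start. The PSMA4 promoter held 1 match to TGACNNNGC under a low peak of 82 fragments in SHP1705. Over all member promoters, TGACNNNGC was found in 10 of 38 (26.3%), in ADRM1, PSMA4, PSMB3, PSMB9, PSMC4, PSMC5, PSMD1, PSMD12 and PSMD3, against 13.8% of 22156 promoters of protein-coding genes. CCAAT was found in 18 (47.4%, against 34.6%) and GGGCGG in 27 (71.1%, against 56.3%). The AP-1 site TGANTCA was found in 2 (5.26%, against 6.16%) and the E-box CACGTG, the site of the clock activators, in 1 (2.63%, against 8.34%). These matches describe the letters of the windows and were not tested against the peaks.

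A peak lay within 10 kb of 25 members in DMSO, 35 in SHP1705, 25 in MG132 and 24 with both drugs. As shares these were 71.4% in DMSO (exact 95% binomial interval 53.7 to 85.4), 100% in SHP1705 (90.0 to 100), 71.4% in MG132 (53.7 to 85.4) and 68.6% with both drugs (50.7 to 83.1). By the same rule a peak lay near 58.8%, 88.4%, 71.3% and 64.0% of all protein-coding genes, so the shares of members in MG132 and in the combination were close to the background, and the background lay inside the members' interval in DMSO as well. In SHP1705 the background lay just under the members' interval. Inside the gene itself, a peak was held by 11 members in DMSO (background 42.1% of genes), 30 in SHP1705 (75.9%), 13 in MG132 (51.6%) and 15 with both drugs (45.7%). Members were shorter than other genes, with a median length of 13.5 kb against 24.2 kb. Of the peaks near members, 12 of 31 in DMSO, 51 of 125 in SHP1705, 10 of 43 in MG132 and 11 of 47 in the combination had their summit inside another protein-coding gene.

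**Figure D1:**
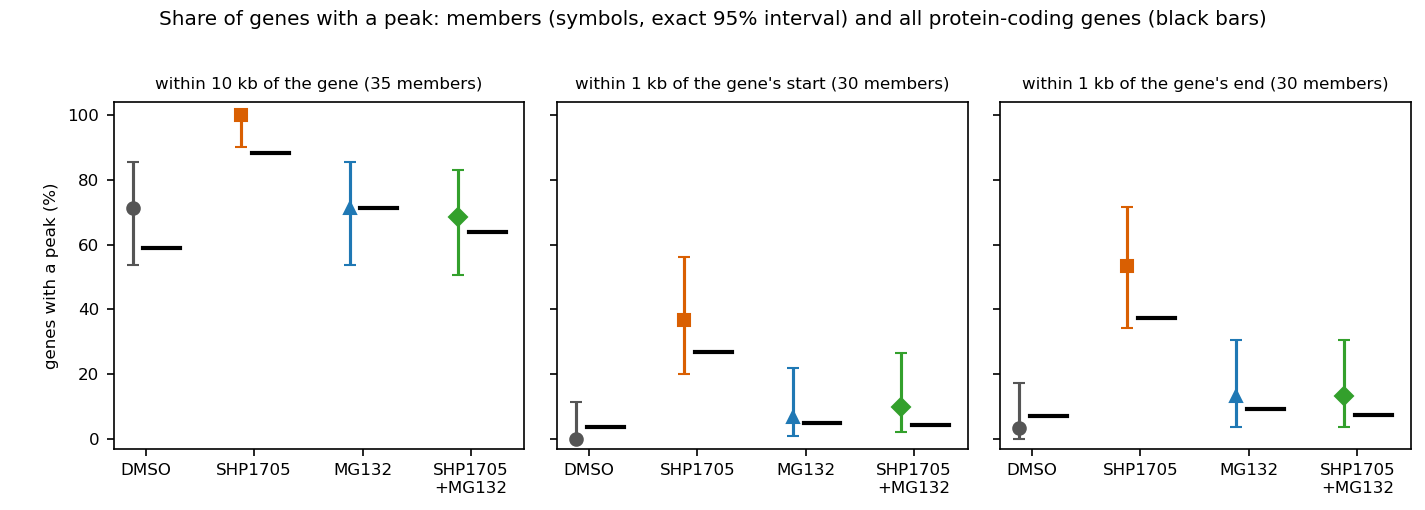
Share of member genes with a peak (symbols, with exact 95% binomial intervals) beside the share of all protein-coding genes (black bars), in percent, for each treatment, within 10 kb of the gene, within 1 kb of its start and within 1 kb of its end. All 35 members held a peak in SHP1705, and the MG132 symbol at 71.4% lies on its background of 71.3%.

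The peaks near members were mostly peaks of a single list. Of the 31 near members in DMSO, 20 (64.5%) overlapped no peak of another list, as did 103 of 125 (82.4%) in SHP1705, 35 of 43 (81.4%) in MG132 and 32 of 47 (68.1%) in the combination. Over all peaks these shares were 70.9%, 81.5%, 76.8% and 74.5%. The lists made with MG132 shared few regions, near members and over all peaks. Near members, 4 of the 43 MG132 peaks (9.30%) lay in a region that also held a peak of the combination. Likewise, 4 of the 47 combination peaks (8.51%) lay in one that held a peak of MG132. Over all peaks these shares were 13.6% and 16.6%. The shares near members rest on 4 peaks each, and their difference from those over all peaks was not tested. The heights of the peaks near members were similar, with medians of 5.86 FPM in DMSO, 5.06 in MG132 and 5.54 with both drugs, and 1.85 in the deeper SHP1705 library. Per 1000000 bases of gene and flank, members held 19.5 peaks in DMSO, 78.5 in SHP1705, 27.0 in MG132 and 29.5 with both drugs, against 14.9, 41.7, 22.9 and 18.0 over all protein-coding genes.

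Comparing MG132 with DMSO, 20 members held a peak in both lists and 5 in neither. The 5 with a peak in MG132 and none in DMSO were PSMB2, PSMD2, PSMD8, PSMD13 and ADRM1 (14.3%, interval 4.81 to 30.3), against 23.6% of all genes. The 5 with a peak in DMSO and none in MG132 were PSMA6, PSMA7, PSMB7, PSMB10 and PSMD11, against 11.1% of all genes. Members thus entered and left the list in equal number, and the background share lay within the interval of those that entered. Comparing the combination with the same DMSO library, 7 members entered (20.0%, against 20.1% of all genes) and 8 left (22.9%, against 14.8%). Comparing SHP1705 with it, 10 entered (28.6%, against 33.6%) and 0 left (against 4.02%). The 3 comparisons share the DMSO library.

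In both MG132 lists and not in DMSO, a peak lay near 4 members: PSMD2, PSMD8, PSMD13 and ADRM1 (11.4%, interval 3.20 to 26.7, against 12.9% of all genes). All 4 are non-ATPase genes, a class of 12 of the 35 members, and each also held a SHP1705 peak, as did every member. The reverse, a peak in DMSO and in neither MG132 list, was seen for PSMB10 and PSMD11 (5.71%, against 5.32%). In each direction the share was close to the background. Near 14 members a peak was held in all 4 lists (40.0%, against 36.9% of all genes), and the same 14 held one in the 3 lists other than SHP1705 (against 38.2%). At least 1 of those 3 lists held a peak near 33 members; PSMA5, a core alpha gene, and PSMB6, the gene of the caspase-like site, held one in SHP1705 alone.

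**Figure D2:**
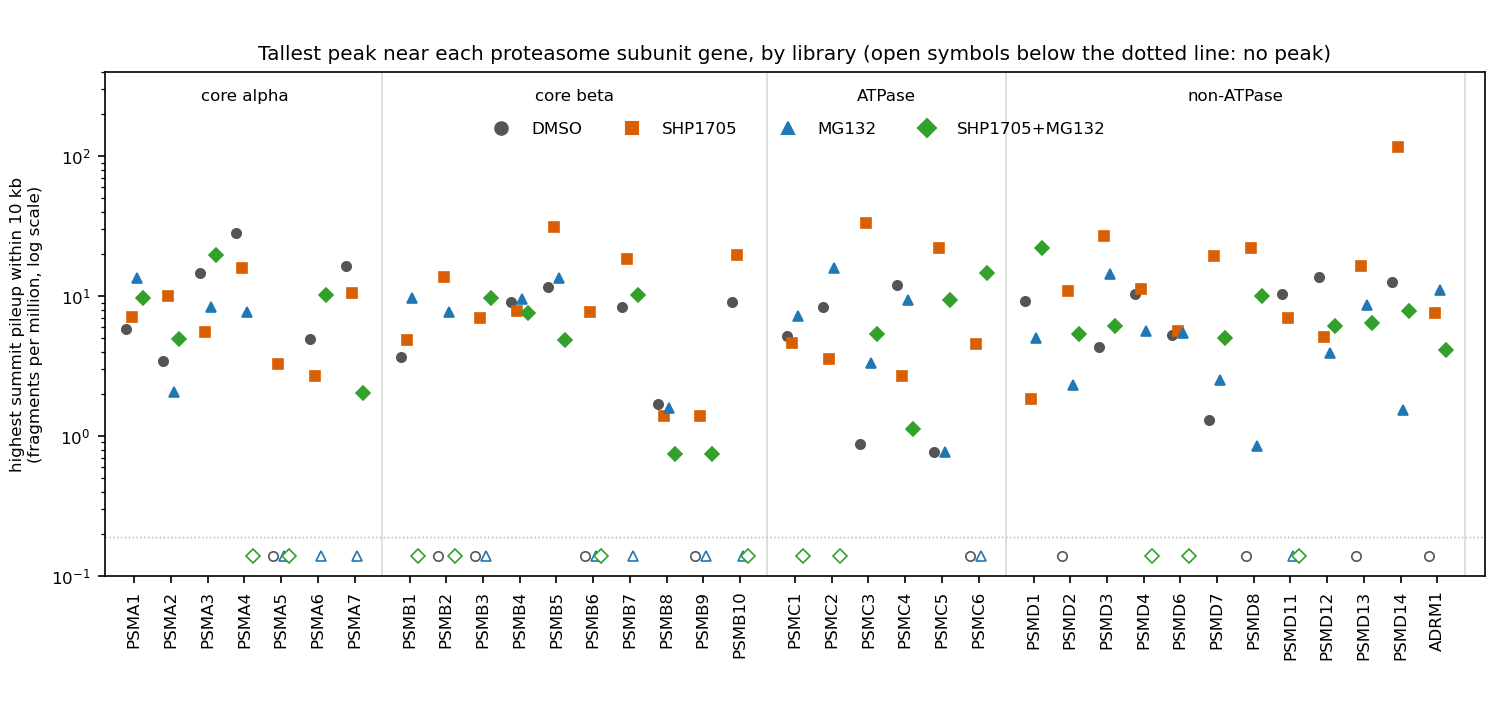
Height of the tallest peak within 10 kb of each of the 35 member genes, in fragments per 1000000 (FPM) on a log axis, 1 symbol per treatment; open symbols below the dotted line mark lists with no peak. SHP1705 squares are present for every member, and the highest is PSMD14 at 116 FPM.

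Among the core alpha genes, a peak was held by 6 of 7 in DMSO, 7 in SHP1705, 4 in MG132 and 5 with both drugs. The tallest of the class in DMSO was near PSMA4, of 837 fragments or 28.2 FPM. It lay 8894 bp upstream of the gene, inside its neighbour HYKK, and overlapped no peak of another list. PSMA4 also held 15.9 FPM inside the gene in SHP1705 and 7.73 FPM 660 bp upstream of its start in MG132, and none in the combination. The 3 lists with a peak thus marked different places at PSMA4.

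PSMA1, at 138787 bp the longest member, held 2 peaks inside the gene in DMSO, 6 in SHP1705, 4 in MG132 and 4 with both drugs, with tallest heights of 5.86, 7.12, 13.5 and 9.74 FPM. The 13.5 FPM in MG132, of 369 fragments, was the tallest of the class in that list and lay 32100 bp from the gene's end. One region inside PSMA1 was shared, by DMSO at 1.51 and the combination at 0.988 FPM. PSMA2 held heights of 3.47 in DMSO, 10.1 in SHP1705, 2.05 in MG132 and 4.94 with both drugs, at 4 different places: inside the gene, in the neighbour MRPL32, in the downstream flank and over the start shown above.

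PSMA3 held 14.7 FPM in DMSO, 5.54 in SHP1705, 8.43 in MG132 and 19.6 with both drugs. The last, of 554 fragments, was the tallest of the class in the combination and lay 5120 bp downstream, within the antisense gene PSMA3-AS1; SHP1705 held 0.549 FPM in that region. STARR-seq counts reporter fragments, so a summit within PSMA3-AS1 gives a place and not the transcription of either gene. PSMA6 held 4.95 in DMSO, 2.70 in SHP1705 and 10.2 with both drugs, and PSMA7 held 16.5, 10.6 and 2.05, both with none in MG132. PSMA5 held only SHP1705 peaks, up to 3.26 FPM. Over the class, the gene with the tallest peak thus differed between MG132 (PSMA1) and the combination (PSMA3).

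Among the core beta genes, a peak was held by 6 of 10 in DMSO, 10 in SHP1705, 5 in MG132 and 6 with both drugs. PSMB5, the gene of the site that MG132 blocks, was the only member of the class whose peak was tallest in 3 lists. Its tallest heights were 11.6 FPM in DMSO, 31.1 in SHP1705, 13.6 in MG132 and 4.87 with both drugs. The DMSO peak lay 6258 bp downstream and the MG132 peak 6002 bp upstream, so these 2 values are of different fragments. The SHP1705 peak of 3676 fragments lay inside PSMB5, 294 bp before its end.

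That gene-end region of PSMB5 (chr14:23025870-23026494) was also called in MG132 at 1.32 FPM, of 36 fragments, and in the combination at 3.64, of 103 fragments, and not in DMSO. It was thus low in both MG132 lists beside the SHP1705 library. The other catalytic genes were PSMB6, with 7.75 FPM inside the gene in SHP1705 alone, and PSMB7, the gene of the trypsin-like site, with 8.31 in DMSO, 18.4 in SHP1705, 10.3 in the combination and none in MG132. The PSMB7 peak of 10.3, of 291 fragments, was the tallest of the class in the combination.

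PSMB8, PSMB9 and PSMB10 encode the interferon-induced subunits that replace PSMB5, PSMB6 and PSMB7 in the immunoproteasome. PSMB8 and PSMB9 lie beside each other and beside TAP1 on chromosome 6, and a region inside TAP1 with 1.17 FPM in SHP1705 and 0.741 with both drugs counted for both. PSMB8 held no more than 1.68 FPM in any list, in DMSO, and held 1.58 FPM in MG132, 44 bp before the gene's end. PSMB9 held 1.40 in SHP1705 and 0.741 with both drugs. These genes thus carried low peaks, while PSMB10 held 9.15 in DMSO and 19.6 in SHP1705, both inside neighbouring genes, and none in either MG132 list.

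The remaining beta genes are structural. PSMB4 held heights of 9.05 in DMSO, 7.84 in SHP1705, 9.49 in MG132 and 7.55 with both drugs, but these were 4 separate places in its flanks, and the only peak inside the gene was one of 6.35 in SHP1705, 517 bp from the start. PSMB1 held 3.67 in DMSO, 4.88 in SHP1705 and 9.75 in MG132. PSMB2 held 13.7 in SHP1705 and 7.73 in MG132, and PSMB3 held 6.97 in SHP1705 and 9.74 with both drugs. Similar heights at a gene did not mean the same region in this class.

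Among the ATPase genes, a peak was held by 5 of 6 in DMSO, 6 in SHP1705, 5 in MG132 and 4 with both drugs. PSMC3 held the tallest SHP1705 peak of the class, of 3974 fragments or 33.6 FPM. It lay 3145 bp downstream of PSMC3, inside SLC39A13 (chr11:47415283-47416408), where DMSO held 0.875 and MG132 0.660 FPM. PSMC3 also held peaks inside the gene, of 3.33 in MG132 and 5.33 with both drugs, at different places. PSMC5 held one region called in all 4 lists, 9161 bp upstream and inside DDX42 (chr17:63817712-63819220), at 0.774 in DMSO, 22.1 in SHP1705, 0.770 in MG132 and 0.565 with both drugs.

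No list held a peak inside PSMC5 itself. Its tallest combination peak, of 9.46 FPM, lay 3488 bp downstream, inside SMARCD2. PSMC4 held 12.0 FPM inside the gene in DMSO, of 356 fragments and the tallest of the class there, with 1.35 in the same region in SHP1705 and none in the MG132 lists, whose PSMC4 peaks of 9.42 (MG132) and 1.13 (combination) lay in the upstream flank. PSMC2 held the tallest MG132 peak near any member, 16.0 FPM of 436 fragments, inside the gene where it overlaps SLC26A5. It held 4 peaks inside the gene in MG132, 1 in SHP1705 and none in DMSO or the combination. The DMSO peak of PSMC2, of 8.41 FPM, lay 6449 bp upstream, and its tallest in SHP1705, of 3.55, lay 2611 bp downstream. PSMC6 held none in DMSO or MG132, 4 peaks in the combination up to 14.7 FPM and 7 in SHP1705 up to 4.53. PSMC1 held 5.22 in DMSO, 4.62 in SHP1705 and 7.22 in MG132.

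Among the non-ATPase genes, a peak was held by 8 of 12 in DMSO, 12 in SHP1705, 11 in MG132 and 9 with both drugs. PSMD14, the deubiquitinase of the cap, held the tallest peak near any member. It lay inside the gene at the annotated pseudogene MXRA7P1 (chr2:161339597-161341319), with 38 fragments or 1.28 FPM in DMSO, 13675 or 116 in SHP1705, 42 or 1.54 in MG132 and 43 or 1.52 with both drugs. The 3 libraries other than SHP1705 were close to each other there. The other PSMD14 peaks included one of 12.7 FPM in DMSO, 1983 bp upstream, and one of 7.80 in the combination, 692 bp upstream.

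PSMD7, the partner of PSMD14 in the cap, held one region at its gene end in all 4 lists (chr16:74305276-74306252), at 1.31 in DMSO, 19.4 in SHP1705, 0.916 in MG132 and 1.20 with both drugs. Among the 30 members of known strand it was the only gene end called in every list. PSMD8 held its gene end in SHP1705 at 21.9 and in MG132 at 0.843, and PSMD13 in SHP1705 at 16.3 and in the combination at 6.42. These subunits form the lid of the cap, and PSMD8 and PSMD13 were the members with a peak inside the gene in both MG132 lists and none near it in DMSO. In PSMD8 the 2 inside peaks were of 23 fragments in MG132 and 65 with both drugs, 317 and 4932 bp before the gene's end. In PSMD13 they were of 75 and 182 fragments, 7693 and 819 bp before it. The peaks of the MG132 lists thus lay at different places in both genes.

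PSMD11, a lid subunit, was the member with a peak inside the gene in DMSO, of 306 fragments or 10.3 FPM, and none within 10 kb in either MG132 list. PSMD11 also held a DMSO peak of 18 fragments in MYO1D, 9919 bp away, in a region called in all 4 lists; the MG132 summit there, of 0.843 FPM, lay 10107 bp from the gene and so beyond the limit. Just inside the limit were also PSMD2 in the combination (9892 bp, 5.33 FPM) and PSMB6 in SHP1705 (9916 bp, 1.24), and just outside it PSMD11 in SHP1705 (10025 bp, 30.5) and PSMA3 in SHP1705 (10275 bp, 9.33).

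PSMD12, another lid subunit, held the tallest DMSO peak of the class, 13.8 FPM of 410 fragments, in a region that SHP1705 held at 0.423 and the combination at 2.12 (chr17:67347108-67347513). PSMD1, a large scaffold of the cap's base like PSMD2, held 9.25 in DMSO, 1.85 in SHP1705, 5.06 in MG132 and 22.0 with both drugs. The last, of 623 fragments inside the gene, was the tallest combination peak near any member. PSMD3 held 4.31 in DMSO, 27.0 in SHP1705, 14.4 in MG132 and 6.14 with both drugs, at 4 different places.

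PSMD2 held none in DMSO, 10.8 in SHP1705, 2.31 in MG132 and 5.33 with both drugs, and the peaks of both MG132 lists lay in its neighbour EIF4G1. The ubiquitin receptors PSMD4 and ADRM1 differed in which lists held them. PSMD4 held 10.3 in DMSO, 11.2 in SHP1705, 5.64 in MG132 and none in the combination. ADRM1 held none in DMSO, 7.57 in SHP1705, 11.1 in MG132 and 4.13 with both drugs. PSMD6 held 5.25 in DMSO, 5.63 in SHP1705 and 5.42 in MG132, again at separate places.

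Along the gene, the lists differed in where the peaks lay. Among the 30 members of known strand, 0 in DMSO, 11 in SHP1705, 2 in MG132 and 3 with both drugs held a peak within 1 kb of the start, against 3.65%, 26.9%, 4.94% and 4.24% of 15813 protein-coding genes. The SHP1705 share was 36.7% (interval 19.9 to 56.1). Within 1 kb of the gene's end a peak was held by 1 member in DMSO, 16 in SHP1705, 4 in MG132 and 4 with both drugs, against 6.98%, 37.3%, 9.27% and 7.51%. The SHP1705 share was 53.3% (interval 34.3 to 71.7), and each background share in SHP1705 lay within the members' interval. For DMSO, 0 of 30 members at the start allows a share of up to 11.6% by the exact interval.

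The members with a start peak in MG132 were PSMA4 and PSMD7, and those in the combination were PSMA2, PSMD12 and PSMD14, so no member held one in both. With a gene-end peak, PSMB5 and PSMD7 were in both lists, beside PSMB8 and PSMD8 in MG132 and PSMC3 and PSMD13 in the combination. In SHP1705, the 16 gene-end peaks had a median of 6.41 FPM (range 0.921 to 31.1), the 11 start peaks 1.38 (0.304 to 27.0) and the 41 other peaks inside genes 1.05 (0.347 to 116). The end of the gene was the place of the tallest peak in or within 1 kb of the gene for 13 of 29 members (44.8%) in SHP1705, 1 of 10 in DMSO, 3 of 13 in MG132 and 3 of 15 in the combination. Over all protein-coding genes of known strand with such a peak, the share was 33.4% in SHP1705, against 10.7% for DMSO, 10.6% for MG132 and 10.4% with both drugs. In MG132, the 4 gene-end peaks were low, from 0.843 to 1.58 FPM.

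**Figure D3:**
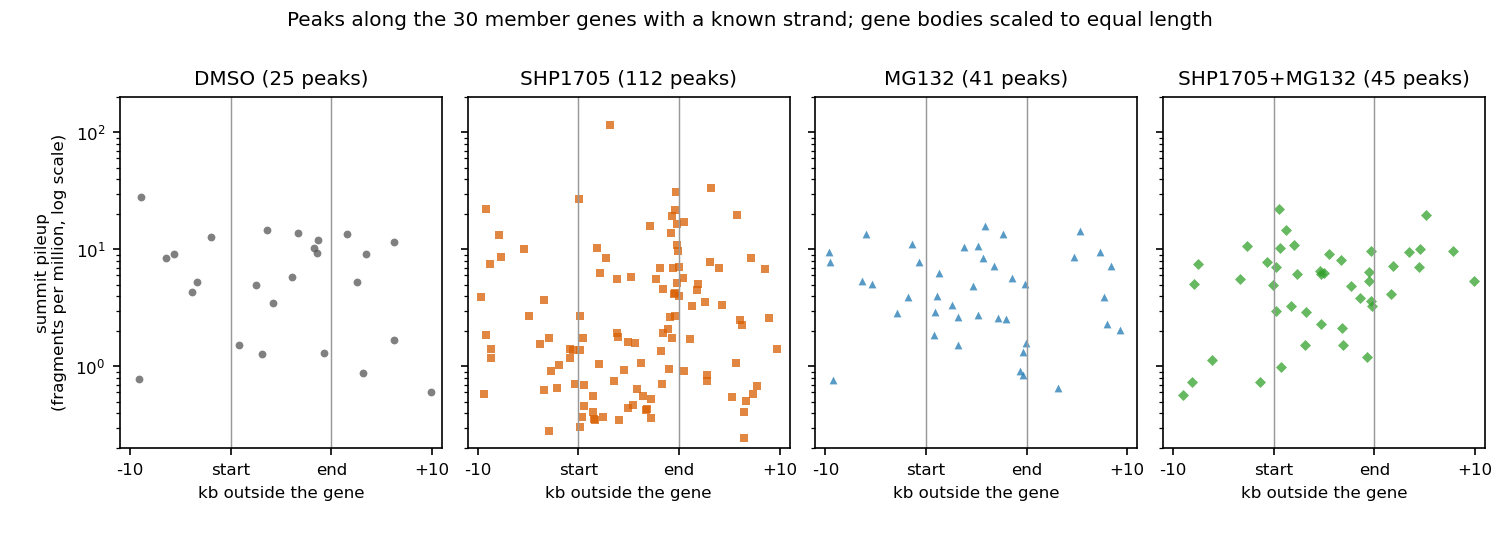
Height of each peak, in fragments per 1000000 (FPM) on a log axis, by its place along the 30 member genes of known strand, with gene bodies scaled to equal length between start and end and 10 kb outside on each side; 1 panel per treatment, and a peak near both PSMB8 and PSMB9 is drawn for each. In SHP1705 a column of peaks stands at the gene end with a median of 6.41 FPM, while the other panels show few peaks there.

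Regions called in more than 1 list allow heights to be compared where peaks overlapped by at least 1 bp, though their summits need not coincide. Counting a list only where its own summit lay within 10 kb of the member, there were 23 such regions near members: 3 in all 4 lists, 3 in 3 lists and 17 in a pair of lists. The region in MYO1D near PSMD11, called in all 4 lists, was left out by this rule, since only its DMSO summit lay within 10 kb. MG132 and DMSO shared 4. The ratio of MG132 to DMSO was 0.698 at PSMD7 (interval 0.405 to 1.18), 0.754 at PSMC3 (0.389 to 1.43), 0.994 at PSMC5 (0.523 to 1.88) and 1.20 at PSMD14 (0.757 to 1.92). Their median was 0.874, each interval contained 1, and 0 of 4 differed by 2-fold or more, while 9.46% of 2506 such regions near all protein-coding genes were at least 2-fold higher and 17.5% at least 2-fold lower, around a median of 0.9997. These summits held 18 to 42 fragments in either library, and the intervals ran from 0.389 to 1.92, so differences within those bounds were not detectable at this depth.

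The combination shared 5 regions with DMSO, with a median ratio of 0.730 (range 0.154 to 1.19). The lowest was PSMD12, from 410 fragments in DMSO to 60, a ratio of 0.154 (interval 0.115 to 0.202), and it was the only one past 2-fold, against a background of 13.1% lower and 9.96% higher among 2149 regions with a median of 0.889. SHP1705 shared 9 regions with DMSO. At 4 it was higher, by 90.4 times at PSMD14, 38.4 at PSMC3, 28.5 at PSMC5 and 14.8 at PSMD7, and at 4 lower, with ratios of 0.160 at PSMC1, 0.113 at PSMC4, 0.0438 at PSMB5 and 0.0306 at PSMD12. The DMSO and SHP1705 summits lay 6258 and 6667 bp from the gene's end at PSMB5, 1413 and 1888 at PSMC4 and 2527 and 2819 at PSMC1. The ratios at PSMB5, PSMC4 and PSMC1 thus compare separate summits of overlapping peaks, not the same place. The median of the 9 was 1.08, beside 15.7 over 3065 regions near all genes, of which 56.3% were at least 2-fold higher and 34.9% at least 2-fold lower. The members' median rested on the setting: it was 7.93 over 10 regions once the PSMD11 region, 50.3 times higher in SHP1705, was counted, an alternative chosen after seeing the data. It was 28.5 with 50% reciprocal overlap, 7.93 with a common minimum peak width, 7.45 inside genes only and 3.44 when scaled by regions in all 4 lists. Of the 9 regions near members, 8 thus lay past 2-fold on one side or the other. Merged without the SHP1705 list, the regions shared with DMSO were again 4 for MG132 and 5 for the combination, with medians of 0.874 and 0.730.

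Of the 17 regions in a pair of lists, 9 joined SHP1705 with the combination. Inside PSMC6 one such region held 0.406 FPM in SHP1705 and 14.7 with both drugs, with summits 3155 and 2595 bp from the gene's start. Another upstream of PSMC6 held 0.279 and 10.8, with summits 2882 and 2640 bp before the start. At the PSMD13 gene end the order was opposite, with 16.3 in SHP1705 and 6.42 with both drugs, at summits 309 and 819 bp before the end. In each pair the summits lay apart, so these are heights of overlapping peaks and not of the same place. In all, 14 of the 47 combination peaks near members (29.8%) lay in a region with a SHP1705 peak, against 15.7% of all combination peaks, and 10 of the 31 DMSO peaks (32.3%) did, against 18.4% of all DMSO peaks. Members held more SHP1705 peaks per base than other genes, as given above, and the part of this in the overlap was not tested.

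Many proteasome genes have processed pseudogene copies elsewhere in the genome, made by reverse transcription of their messenger RNA. Copies named after 18 of the members numbered 41, and a peak lay inside 9 in DMSO (22.0%, interval 10.6 to 37.6), 18 in SHP1705 (43.9%, 28.5 to 60.3), 11 in MG132 (26.8%, 14.2 to 42.9) and 8 with both drugs (19.5%, 8.82 to 34.9). The background over 16664 annotated pseudogenes was 8.32%, 22.6%, 9.63% and 8.37%, so the members' copies were above it in each list, with the interval's lower bound above the background in all 4. The copies were longer, with a median of 1305 bp against 707.5 bp over all pseudogenes, and the part of length in these shares was not tested. Fragments of a copy and of its parent's exons can be near-identical, so their assignment is uncertain.

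A peak was held in all 4 lists by 6 copies, PSMA2P3, PSMB3P2, PSMC1P1, PSMC3P1, PSMC6P1 and PSMD8P1, and by 7 in the 3 lists other than SHP1705, the 7th being PSMD2P1. PSMC1P1 held 2.66 FPM in DMSO, 81.1 in SHP1705, 5.39 in MG132 and 3.25 with both drugs. PSMA2P3 held 2.46, 71.3, 2.38 and 2.26, and PSMB3P2 held 2.12, 60.2, 2.49 and 1.69 in that order. At these copies the SHP1705 library thus stood more than 10 times above the others. In PSMC1P1 its peak spanned 1427 bp of a 1541 bp copy, and DMSO and the combination spanned 1292 and 1303 bp.

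In SHP1705, 9 of the 18 copies with a peak were taller than any SHP1705 peak near their parent gene. The copy PSMC1P1 was 17.6 times the tallest peak near PSMC1, at 4.62 FPM. PSMD8P1 held 0.841, 44.0, 1.32 and 4.31, PSMC6P1 held 1.08, 29.3, 1.06 and 0.671, and PSMC3P1 held 11.4, 61.8, 2.46 and 1.48. In any of the 3 lists other than SHP1705 a peak lay in 12 copies.

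The ratio of MG132 to DMSO over the 9 copies called in both had a median of 1.32 and a range of 0.215 to 2.64. PSMD2P1 was the highest, from 64 fragments to 155 (2.64, interval 1.96 to 3.59), followed by PSMC1P1, from 79 to 147 (2.03, 1.53 to 2.70), and PSMC3P1 was the lowest, at 0.215. In both PSMD2P1 and PSMC1P1, MG132 held 2 peaks and DMSO held 1. The MG132 widths given for them were 1305 and 657 bp, against 2629 and 1292 bp in DMSO. Whether summits coincided was not examined for the copies, so their ratios need not compare the same place. For the combination over the same DMSO library, 7 copies gave a median of 0.803 and a range of 0.130 to 5.12. For SHP1705 over DMSO, 8 copies gave ratios from 5.41 to 52.3, all above 1.

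**Figure D4:**
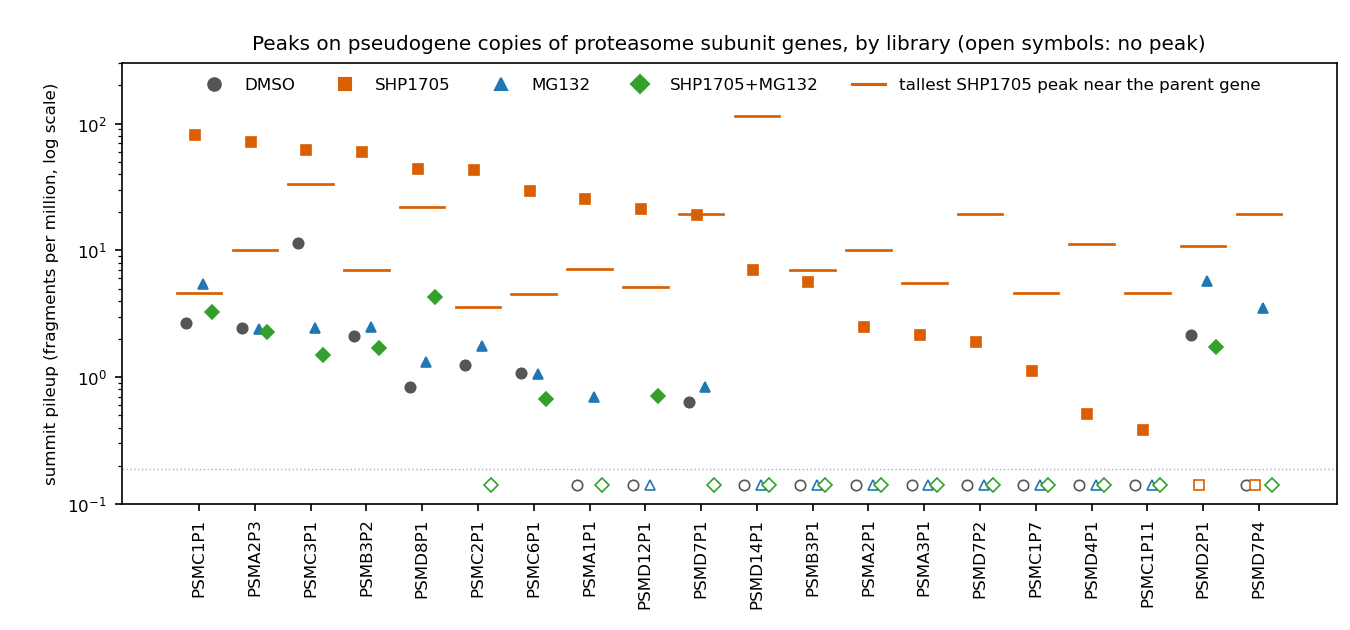
Height of the peak on each of the 20 pseudogene copies that held one in any list, in fragments per 1000000 (FPM) on a log axis, 1 symbol per treatment; open symbols mark no peak and bars the tallest SHP1705 peak near the parent gene. SHP1705 reaches 81.1 FPM at PSMC1P1, above the bar of its parent at 4.62.

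A list of 32 genes was matched in full. It held 3 subunit genes outside the 35 members, PSMA8 and PSMB11 of tissue-restricted core particles and SEM1 of the cap, beside assembly factors, activators, associated enzymes, shuttle proteins, ubiquitin genes and NFE2L1 with its processing enzymes. A peak lay within 10 kb of 17 in DMSO (53.1%, interval 34.7 to 70.9), 32 in SHP1705, 29 in MG132 (90.6%, 75.0 to 98.0) and 20 with both drugs (62.5%, 43.7 to 78.9), beside the 58.8%, 88.4%, 71.3% and 64.0% of all genes. Without those 3 subunit genes, the counts of 29 were 16, 29, 26 and 18. The same MG132 peak counted for both PSME1 and PSME2, and the MG132 peak near PSMB11 also counted for the member PSMB5. Inside the gene itself, 21 of the 32 genes held an MG132 peak, against 51.6% of all genes. Gene lengths were not compared for this list. Within 10 kb, the MG132 share was 90.6% for this list and 71.4% for the 35 members, and no test of that difference was made. In the combination, which also contained MG132, the share was close to the background.

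NFE2L1, the factor that raises subunit genes, held one region at 11.5 FPM in DMSO, 38.1 in SHP1705, 1.17 in MG132 and 1.02 with both drugs, a ratio of MG132 to DMSO of 0.102 (interval 0.0686 to 0.147). A second region in NFE2L1 held 1.51, 53.7, 1.80 and 1.48, with a ratio of 1.19 (0.775 to 1.82). NFE2L1 thus held one region that was lower in both MG132 lists and one that was not past 2-fold in them. In the first, the summits lay at 48050771 in DMSO, 48050810 in MG132 and 48051148 with both drugs. In the second, they lay at 48059313, 48060423 and 48060546 in that order. The combination in the first region, and both MG132 lists in the second, thus compare separate summits of overlapping peaks with DMSO. The ubiquitin gene UBB held 12.9 in DMSO, 472 in SHP1705, 44.9 in MG132 and 11.0 with both drugs, and its ratio of MG132 to DMSO was 3.48 (3.10 to 3.91). UBB consists of near-identical ubiquitin repeats, so the placement of its fragments is uncertain.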

How the data were processed

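STARR-seq reporter RNA of MDA-MB-231 cells was analysed in 4 libraries, 1 per treatment. The submitters' processing notes name the hg38 build, Bowtie2, MACS2, FastQC and Trimmomatic; the version of MACS was 2.2.6, per the file headers. Each library was peak-called alone, as the same headers record, at a q limit of 0.01 with no control, duplicates kept and a background over 10000 bp, and the fragment size (346, 299, 354 and 355 bp in the order DMSO, SHP1705, MG132, combination) was the minimum width. The deposited signal is the pileup at the summit, not scaled for depth. The authors' fold enrichment (a ratio to local background) and −log10 q were used within a list only.

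Peaks on chromosomes 1 to 22 and X were matched by summit to RefSeq genes, heights divided by header fragments, and peaks sharing at least 1 bp merged into regions (pandas 2.3.3, scipy 1.17.1, Python 3.11.15). Shares have exact (Clopper-Pearson) 95% intervals and height ratios exact conditional binomial intervals; since duplicates were kept, fragments are not independent molecules and the intervals cover counting error only. The script was tested on simulated data. No p-value was computed, as there was 1 library per group. Strand came from the RefSeq promoter table. No genome sequence was used here, so peaks are given without sequence.

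Members and gene lists were chosen with earlier results of these data known. Genes described in full were members with a peak near them in all 4 lists, the member with the tallest peak per class and list, those with a peak inside in both MG132 lists and none near in DMSO, and the reverse; no member lacked a peak in every list. The remaining members are given by their heights.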

Additional observations from a re-analysis of the deposited data

How the results depend on the processing

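With 1 library per treatment, every comparison rests on single libraries, and depth, fragment size and treatment cannot be told apart for SHP1705. Counted inside genes only, members with a peak numbered 11 in DMSO, 13 in MG132 and 15 with both drugs. Within 1 kb they numbered 11 in DMSO, 15 in MG132 and 16 with both drugs. The other counts stayed within 1.5 times of those reported, from 18 to 35 members over a 50 kb window, a −log10 q of at least 5, equal list lengths, a common minimum width, peak intervals in place of summits and, chosen after seeing the data, a height of at least 1 FPM (fragments per 1000000). With lists cut to equal length the counts were 25, 35, 18 and 20. The median ratio of SHP1705 to DMSO was 28.5 with 50% reciprocal overlap (3 regions), 3.44 when scaled by regions in all 4 lists, 7.93 with a common minimum peak width, 7.45 inside genes only and, chosen after seeing the data, 7.93 when 1 summit within 10 kb was enough for a region (10 regions); the cause was not tested. The medians for MG132 and for the combination stayed within the interval of their middle regions under every alternative run. No paired analysis was possible because each group was 1 library and no test was made.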
